A study of Mus musculus with 3 samples.

Results

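LMX1B is the LIM homeodomain transcription factor that gives limb mesenchyme its dorsal character. Described here are the stretches of chromatin that lie inside genes and that a validation chromatin immunoprecipitation with sequencing (ChIP-seq) for LMX1B listed while an earlier ChIP with the same antibody did not. The validation ChIP and the first ChIP each stand for limb buds of C57BL/6 mice at embryonic day 12.5, in which fore- and hindlimb buds were pooled, with 48 limb buds in each of 2 runs. No genotype appears in the validation track's name, the first ChIP is marked wild type (WT), and the input DNA came from WT and mutant chromatin together and has no interval list. Both ChIPs used the polyclonal LMX1B antibody BMO8, so each list is 1 sample of pooled embryos, with no replicate and no second antibody. Interval lists hold neither reads nor expression, so depth is unknown and the labelled tissue could not be checked against markers.

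The members were chosen by a rule that used the lists themselves: a validation interval that shares not even 1 bp with a first-ChIP interval, with its midpoint in the body of a RefSeq gene of any biotype and more than 1 kb from any gene end. The rule gave 1776 of the 4501 validation intervals, or 39.5%, set against 1287 intervals of the first ChIP. Of all validation intervals 84.4% had no first-ChIP overlap, and of the 2073 in gene bodies 85.7%. The other 297 in gene bodies overlapped a first-ChIP interval and are called shared here. With 1 sample a list there is no test of any difference between the lists, and intervals in brackets are 95% Wilson intervals that cover counting error only.

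A homeodomain protein binds short AT-rich DNA built around TAAT, often far from the promoters it regulates, and introns are a common place for such distal elements. LIM homeodomain proteins also act with partners: LDB cofactors that bridge them, and basic helix-loop-helix E proteins that bind the E-box. In the limb bud, LMX1B works downstream of dorsal Wnt signalling among the transcription factors and signals that pattern the mesenchyme. On gene lists described below, members lay in 27 of 60 limb transcription factor genes and 26 of 91 signalling genes. Of all protein-coding genes 4.40% held one. Those on the lists included Tbx5, Prrx1, Gli3, Shox2, Fgf10, Wnt5a and its receptors Ror1 and Ror2. Their highest scores ran from 8 in Wnt5a to 27 in Tbx5. A member also lay in Lmx1b itself.

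No genome sequence was used here, but RefSeq promoter windows (assembly GRCm38.p6, the coordinates of mm10; 250 bases before to 50 after an annotated start site) gave sequence for members that cover a start site inside a gene. Of the 1683 members on chromosomes with such windows, 31 (1.84%, 1.30 to 2.60) held a start site, with 34 windows of 31 genes. Among shared intervals in gene bodies it was 5 of 281 (1.78%, 0.762 to 4.10). The windows shown are those of genes on the gene lists that lie in a member for more than 200 bases (Prrx1, Hdac4 and Pdgfra), and those of Btbd11 and Pdzrn4, picked after the search because they hold TAATTA. Capitals mark TAATTA, a palindromic homeodomain core, and the E-box CANNTG, each searched on both strands with overlaps allowed.
Prrx1, chr1:163313601-163313900, minus strand: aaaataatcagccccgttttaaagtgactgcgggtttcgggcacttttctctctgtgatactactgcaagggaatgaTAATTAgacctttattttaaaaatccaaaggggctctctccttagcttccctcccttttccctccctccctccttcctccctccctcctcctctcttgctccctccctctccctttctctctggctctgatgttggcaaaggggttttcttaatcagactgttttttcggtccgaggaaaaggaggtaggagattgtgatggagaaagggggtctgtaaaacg
Pdgfra, chr5:75152001-75152300, plus strand: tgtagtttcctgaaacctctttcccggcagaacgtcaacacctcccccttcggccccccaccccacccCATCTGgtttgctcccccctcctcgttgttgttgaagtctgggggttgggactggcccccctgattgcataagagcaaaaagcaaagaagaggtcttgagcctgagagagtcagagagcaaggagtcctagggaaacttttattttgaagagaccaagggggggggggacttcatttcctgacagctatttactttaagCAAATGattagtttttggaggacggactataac
Hdac4, chr1:92180292-92180591, minus strand: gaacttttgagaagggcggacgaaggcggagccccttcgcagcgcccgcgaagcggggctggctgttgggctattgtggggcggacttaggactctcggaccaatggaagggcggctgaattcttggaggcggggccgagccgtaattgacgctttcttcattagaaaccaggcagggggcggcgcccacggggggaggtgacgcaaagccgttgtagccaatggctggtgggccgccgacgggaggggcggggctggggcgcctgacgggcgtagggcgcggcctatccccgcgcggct
Btbd11, chr10:85386564-85386863, plus strand: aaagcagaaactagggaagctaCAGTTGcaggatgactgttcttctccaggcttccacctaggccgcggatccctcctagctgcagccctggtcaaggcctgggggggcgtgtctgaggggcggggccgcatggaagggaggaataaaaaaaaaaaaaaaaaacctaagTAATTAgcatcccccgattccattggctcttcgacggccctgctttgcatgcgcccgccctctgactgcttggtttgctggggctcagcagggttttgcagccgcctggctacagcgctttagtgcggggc
Pdzrn4, chr15:92596859-92597158, plus strand: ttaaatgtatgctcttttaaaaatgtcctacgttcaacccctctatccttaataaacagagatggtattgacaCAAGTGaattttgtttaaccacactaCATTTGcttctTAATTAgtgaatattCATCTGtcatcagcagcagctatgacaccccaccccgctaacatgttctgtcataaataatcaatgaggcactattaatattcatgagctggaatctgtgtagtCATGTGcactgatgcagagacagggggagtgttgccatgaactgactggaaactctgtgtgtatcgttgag

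Prrx1, a homeobox gene of early limb mesenchyme, held a member at 163313088 to 163313872 on chromosome 1 with a score of 16, and its window has a single TAATTA and no E-box. The summit lay 113 bp downstream of this internal start site, which is 1.495 kb inside the outermost gene start. A first-ChIP interval lay only 0.875 kb from this member, and the Prrx1 body also held 2 shared intervals. Pdgfra, the receptor for platelet-derived growth factor on mesenchymal cells, held a member with a score of 15 whose summit was 38 bp downstream of a start site; its window has 2 marked E-boxes and no TAATTA. The Hdac4 window, 68.0% GC and wholly inside a member with a score of 17, has neither motif. Hdac4 encodes a histone deacetylase that restrains hypertrophy of cartilage cells.

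TAATTA was present in 3 of the 34 windows (8.82%, 3.05 to 23.0) and in 5.30% of all 32817 windows. The E-box CANNTG was in 20 (58.8%, 42.2 to 73.6) and in 72.3% of all, and RUNX (TGTGGT) in 9 (26.5%, 14.6 to 43.1) and in 16.8% of all. The other motifs searched, on both strands, were TTAATTA (which contains TAATTA), AP-1 (TGANTCA), SOX (ACAAAG), TEAD (GGAATG), the CTCF core (CCACNAGG), ETS (CCGGAAG) and AGATAA of the GATA factors. In each of the 10 cases the Wilson interval of the 34 windows spanned the share in all windows. Median GC content was 53.2% in the 34 windows and 52.7% in all. Windows of 1 gene can overlap, and a match is a description of letters, not of a bound site.

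Scores of members were low beside those of shared intervals in gene bodies, but not within the validation list as a whole. The summit score, a whole number that the authors deposited without a unit, had a median of 11 among members (quartiles 9 and 13, range 6 to 35) and 16 among shared intervals in gene bodies (quartiles 13 and 23, range 7 to 55). Validation-only intervals outside genes also had a median of 11, with quartiles of 9 and 13. The median of the whole validation list was 11 too. Members with a score of at least 20 numbered 61 (3.43%, 2.68 to 4.39), against 100 of the shared intervals (33.7%, 28.5 to 39.2). Median width was 552 bp for members, 771 bp for shared intervals in gene bodies and 543 bp for validation-only intervals outside genes. Absence from the first list is part of the rule, so the lower scores are a description of what the rule selected.

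**Figure D1:**
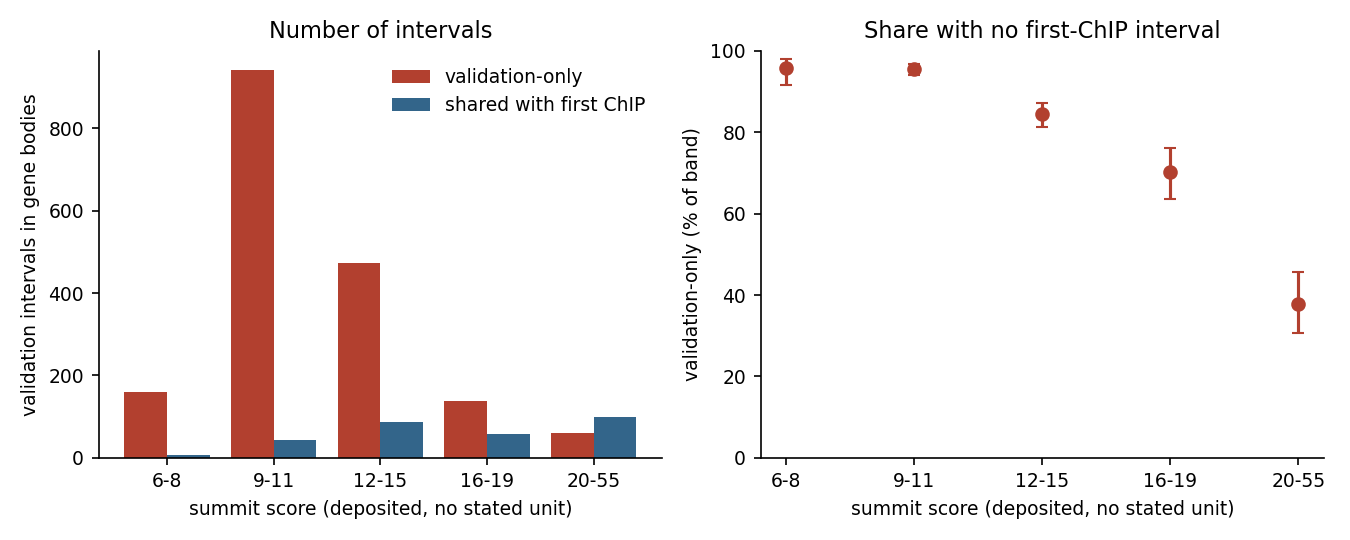
Validation intervals in gene bodies by deposited summit score: left, numbers of validation-only and shared intervals in each score band; right, validation-only intervals as a percentage of the band with 95% Wilson intervals. Validation-only intervals are 95.8% of those scored 6 to 8 and 37.9% of those scored 20 to 55.

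The member with the highest score, 35, lay in Ak8, an adenylate kinase gene, on chromosome 2 at 28797411 to 28798075. A first-ChIP interval lay only 802 bp from it. Next came members in Arhgap24 (score 30, chromosome 5, 102470480 to 102471057), which encodes a GTPase-activating protein for Rac, and Lrba (29, chromosome 3, 86384844 to 86386758), the widest member at 1915 bp. Ccbe1, needed for lymphatic vessel growth, and the long non-coding RNA gene 4930434J06Rik each held one with a score of 28. Cpvl and Tbx5 each held one with 27. The remaining 5 of the top 12 lay in A830031A19Rik and Mad1l1 (26 each) and in Gm46414, Gm33843 and Klhl3 (25 each). Apart from Ak8, the first-ChIP interval nearest to any of the 12 was 23.5 kb away, at Tbx5.

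Few members were near misses of the first list. The median distance to the nearest first-ChIP interval was 357 kb for members and 344 kb for validation-only intervals outside genes. Within 10 kb of a first-ChIP interval lay 107 members (6.02%, 5.01 to 7.23) and 90 of those outside genes (6.42%, 5.25 to 7.83), and within 500 bp lay 18 members. The closest was in Tenm3, a teneurin adhesion gene, with a score of 9, 5 bp from a first-ChIP interval. The next lay in Tbx18, Gm33489 and Eepd1 at 35, 86 and 96 bp. On the other side of the limit, the shared intervals with least overlap lay in Frmd4a (11 bp), Gm32333 (70 bp) and Tspan32 (88 bp). At the gene-end limit, the members nearest to an end were in Dclk1, C2cd5 and Sh3rf1 at 1006, 1011 and 1019 bp with scores of 14, 24 and 12, and intervals left out in Bcas3, Gm34739 and Zfp36l2 lay at 997, 997 and 994 bp with 9, 10 and 10.

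Hosts of members were mostly longer than protein-coding genes in general. Hosts, taken as the longest protein-coding gene at the midpoint or else the longest other gene, were protein-coding for 1494 members (84.1%) and long non-coding RNA genes for 267 (15.0%); 93 midpoints lay in 2 or more overlapping genes, whose signal cannot be told apart. The median host length was 175 kb for members and 206 kb for shared intervals in gene bodies, while all 21779 protein-coding genes had a median of 17.2 kb. The host medians are taken over intervals and the last one over genes, so they are not like for like. Genes under 50 kb were 16844 of the 21779 but made up 251 of 1049 Mb of protein-coding gene body. Counts per gene include gene length, so density is given as well. Of protein-coding genes under 50 kb 1.02% held a member, and of those of 500 kb or more 50.7% (44.2 to 57.1). Per Mb of gene body, members numbered 0.718 in genes under 50 kb, 1.41 from 50 to 200 kb, 1.99 from 200 to 500 kb and 1.72 above. The rule bars midpoints within 1 kb of any gene end, which takes more of a short gene: 84.1% of the length of genes under 50 kb could hold a member, and 98.2% of that of genes of 500 kb or more. Over that usable length alone, a denominator chosen after seeing the data, densities were 0.854, 1.49, 2.05 and 1.75 per Mb from the shortest class to the longest. Part of the lower share and density in short genes is thus set by the rule.

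**Figure D2:**
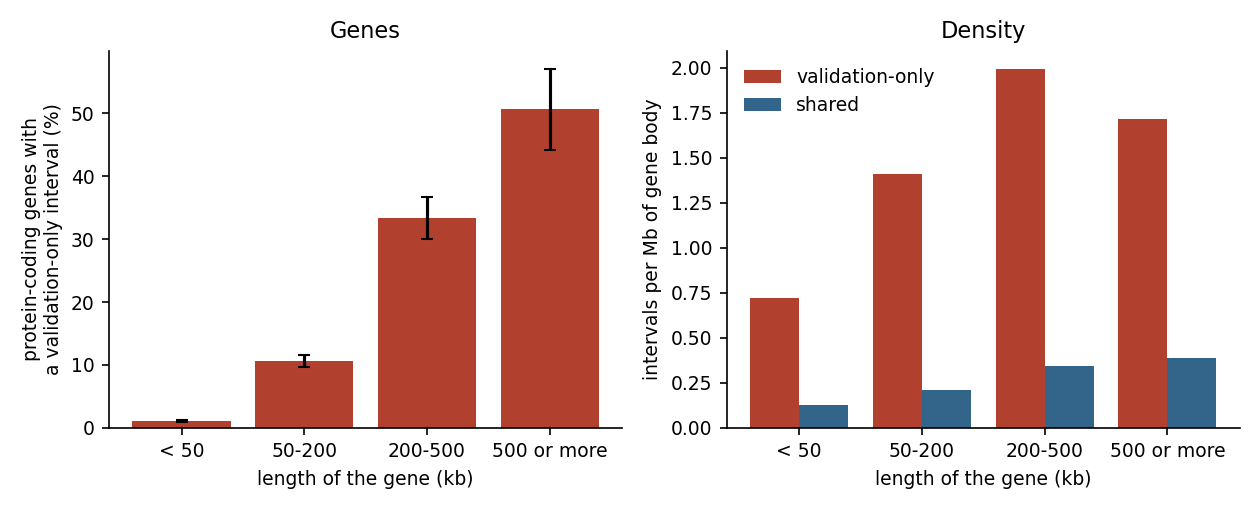
Protein-coding genes by length: left, percentage with a validation-only interval inside the body, with 95% Wilson intervals; right, validation-only and shared intervals per Mb of gene body. The percentage goes from 1.02% below 50 kb to 50.7% at 500 kb or more, while density varies from 0.718 to 1.99 per Mb of whole gene body, including the 1 kb at each end that the rule bars.

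In all, 959 protein-coding genes held a member, which is 4.40% of those in the table, and 215 (0.987%) held a shared interval with its midpoint in the body. Genes with both numbered 128, or 13.3% of the genes with a member and 59.5% of the genes with a shared interval. Of the 959, 711 held a single member, 212 held 2 to 4 and 36 held 5 or more. Among those 36, 22 also held a shared interval and 9 held no first-ChIP interval of any kind. Of all members, 20.9% had a host that also held a shared interval.

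Dnm3, which encodes a dynamin and carries the non-coding RNA gene Dnm3os within it, held most. Its 16 members had scores of 8 to 19 (median 11.5) and lay 142 to 478 kb from the outermost start of a gene 496 kb long, among 7 shared intervals with scores of 8 to 51 (median 16) and 4 first-ChIP-only ones. A run of 11 members, each within 50 kb of the next, spanned 135 kb toward the far end of the gene; 4 shared intervals lay in it or within 50 kb. Dnm3os (chromosome 1, 162217623 to 162225550) is the precursor of miR-199a and miR-214, and mice without it have skeletal defects. It held 2 of the 16 members, at 162219398 to 162219993 and 162221629 to 162222975, each with a score of 12. They lay between the 2 hairpins, 1475 bp beyond Mir199a-2 and 393 bp short of Mir214. Dnm3os also held a shared interval, at 162224329 to 162225381, with a score of 8. Only 1 other member lay within 2 kb of any of 1005 RefSeq hairpins, 608 bp from Mir760 with a score of 16. The mature products of the Dnm3os hairpins are shown to identify the transcript unit, with the seed (bases 2 to 8) in capitals; no 2 of the 4 seeds are the same.
mmu-miR-199a-5p: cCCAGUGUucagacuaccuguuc
mmu-miR-199a-3p: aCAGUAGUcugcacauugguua
mmu-miR-214-5p: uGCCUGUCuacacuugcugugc
mmu-miR-214-3p: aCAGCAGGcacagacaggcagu

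Lrmda, linked to pigment cell differentiation, came next with 15 members of scores 8 to 20 over 1037 kb, beside 4 shared intervals scored 14 to 33. Auts2, a regulator of neural development, and Macrod2 each held 11 members, with highest scores of 23 and 20. Auts2 also held 2 shared intervals, and Macrod2, 1998 kb long, held none. Tcf4, an E-protein gene, held 9 members with scores of 7 to 21 in 345 kb and neither a shared nor a first-ChIP-only interval in its body. Pard3b, a cell polarity gene, held 9 beside 5 shared intervals, and the synaptic scaffold gene Erc2 held 9 that all lay beyond 618 kb of its 856 kb, toward the neighbouring Wnt5a. Mecom, a zinc finger regulator of blood stem cells, held 8, as did the DNA repair gene Rad51b. Scfd2, named among 7 genes with 7 members because ties went to the higher top score, had scores of 10 to 23 (median 17) and no shared interval. The others with 7 were Thsd4, Gm50595, Runx1t1, Smyd3, Nfia and Tenm3.

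**Figure D3:**
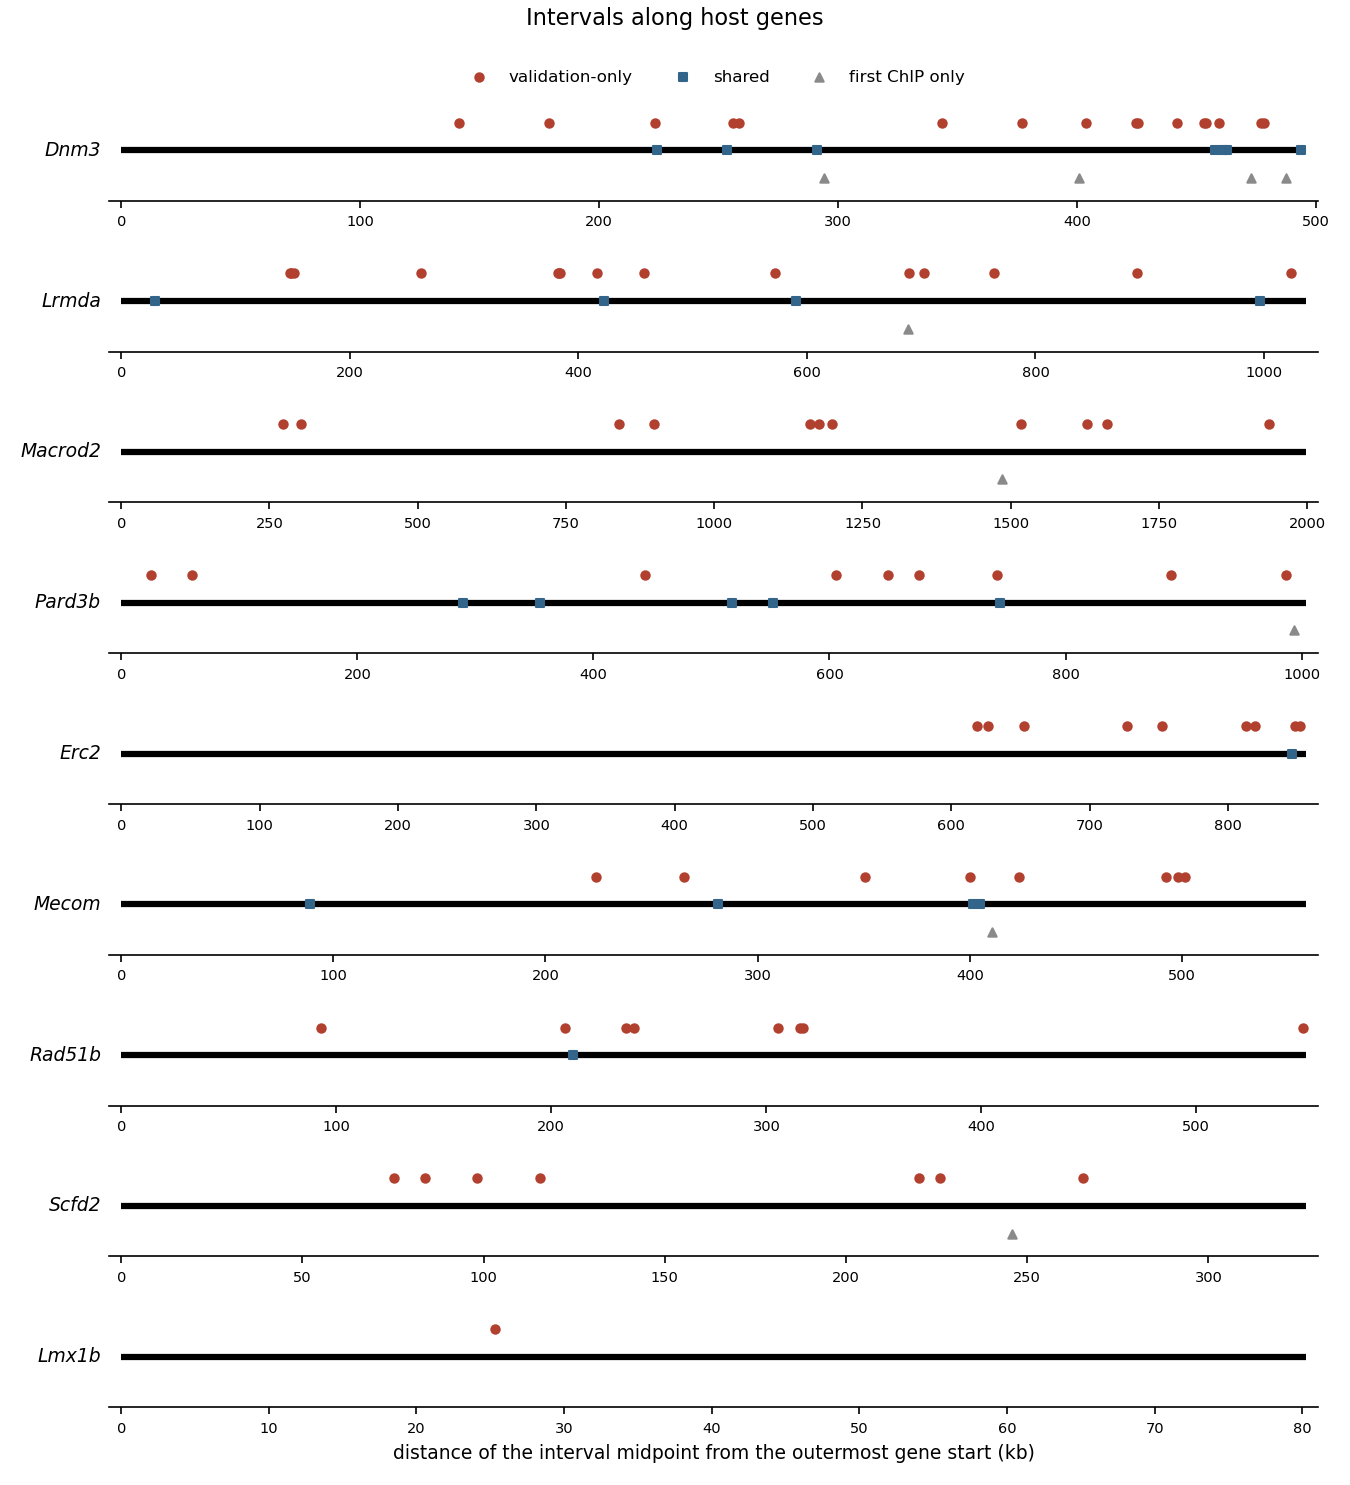
Positions of validation-only (circles), shared (squares) and first-ChIP-only (triangles) intervals along 9 host genes, as the distance in kb of the midpoint from the outermost gene start; black bars span the gene. Dnm3 holds 16 validation-only intervals, and those of Erc2 all lie beyond 618 kb from its start.

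Lmx1b (chromosome 2, 80.2 kb long) held 1 member at 33615444 to 33616364, 25.3 kb from the outermost start, with a score of 12. No first-ChIP interval had its midpoint in the Lmx1b body. Among LIM homeodomain genes and partners, 7 of 25 held a member (28.0%, 14.3 to 47.6), where 4.40% of all protein-coding genes did. Besides Lmx1b and Tcf4 these were Tcf12, another E-protein gene with a score of 12 and 2 shared intervals, Ldb2, which encodes a bridging cofactor (10), the LIM-only genes Lmo1 (15) and Lmo4 (10), and Lhx9 (8), a LIM homeodomain gene of limb mesenchyme. Density on this list was 6.90 per Mb of gene body, and 9 of its 15 members were those of Tcf4.

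This and the other gene lists were chosen with earlier results of these data known, so their shares and densities are descriptions and no independent test. Limb transcription factor genes held members in 27 of 60 cases (45.0%, 33.1 to 57.5), and 7 of the 60 held a shared interval, 6 of them among the 27. Their median length was 22.7 kb, and they held 55 members in 5.64 Mb (an interval in 2 overlapping genes of the list counts in each), or 9.75 per Mb, where all protein-coding genes had 1.43. Limited to scores at or above the median of the validation list, 14 of the 60 (23.3%) held a member, where 2.67% of all protein-coding genes did.

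The limb-identity and T-box genes came with both high and low scores. Tbx5, which starts forelimb outgrowth, held a member at 119827114 to 119827691 on chromosome 5 with a score of 27; its midpoint also lies in the non-coding gene Gm5563. Tbx15, which shapes the shoulder girdle and other skeleton, held 4 with scores of 10, 11, 11 and 12 and the nearest first-ChIP interval to any of them was 354 kb away. Tbx18 held 1 with a score of 10, 2.61 kb from its start. Thus Tbx5 held a single member with a score of 27, and Tbx15 several with scores of 10 to 12. The Tbx5 body also held a first-ChIP-only interval.

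Highest scores in the Hox, Shox, Prrx and Meis genes of the list ran from 7 in Hoxd9 to 16 in Prrx1. Shox2, needed for proximal limb bones, held 2 with a score of 9 each, 2.56 and 1.46 kb from its start. Prrx2, the relative of Prrx1, held 1 with a score of 13 at 8.14 kb. A member with a score of 9 on chromosome 2 at 74685684 to 74686234 lay in both Hoxd10 and Hoxd11, whose annotated bodies overlap, and Hoxd9 held 1 with a score of 7. Meis2, a gene of the proximal limb, held 1 with a score of 9.

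Most members per gene on this list were in 2 long genes, Nfia and Bnc2. Bnc2 held 6 with scores of 9 to 18 over its 409 kb, and Nfia 7 with scores of 9 to 15 over 541 kb. Gli3, the repressor of Hedgehog targets, held 1 with a score of 13 only 2.38 kb from its start. The teashirt genes Tshz2, Tshz3 and Tshz1 had highest scores of 21, 20 and 19, which with Tbx5 were the top 4 of the list. Zfhx4 held 3, of which one with a score of 16 lay 140 bp from a first-ChIP interval. Among the Sall genes, Sall3 held 3 (scores 8, 9 and 10) and Sall1 1 (10).

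Signalling genes held a member in 26 of 91 cases (28.6%, 20.3 to 38.6), with 3.29 per Mb. All protein-coding genes had 4.40% and 1.43 per Mb. Of the ligands, Wnt5a, a non-canonical Wnt that drives limb outgrowth, held 1 with a score of 8, Fgf10, the mesenchymal signal to the apical ridge, 1 with 11, Bmp5 and Bmp7 1 each with 13 and 19, and Igf1 2 with 11 and 18. Of the receptors, Ror2, through which WNT5A signals, held 3 with scores of 10, 16 and 10, and Ror1 2 with 15 and 13. Fgfr1 and Fgfr2 held 1 each, with 13 and 10. Bmpr1b, the receptor for joint and digit signals, held 4 with a highest score of 12. Of nuclear effectors, Tcf7l1 held 2 with 17 and 20 and Tcf7l2 2 with 13 and 14, both HMG-box partners of β-catenin.

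Among the 26 were 4 genes of retinoic acid, picked out after their values were seen: Aldh1a2, which makes it (score 13), Cyp26b1, which breaks it down (12), and the receptors Rarb (highest score 19) and Rarg (15). Of the 26 signalling genes, 5 also held a shared interval, Bmp7, Tcf7l2, Bmpr1b, Notch2 and Lrp6. Hedgehog signalling was represented by Ptch1, its receptor and target, with a score of 11.

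Joint and cartilage genes held members in 14 of 47 cases (29.8%, 18.7 to 44.0; 5.15 per Mb). Over all protein-coding genes the values were 4.40% and 1.43 per Mb. Arid5b, a chondrogenic co-regulator of SOX9, held 6, the zinc finger gene Trps1 5 with scores of 9 to 16, and Sox6, a partner of SOX9, 4. Genes of the cartilage matrix and its modification with 1 member each were Col9a1 (score 13), Vcan (11) and the sulfatases Sulf1 (13) and Sulf2 (10). Tendon and connective tissue genes held them in 11 of 63 cases (17.5%, 10.04 to 28.6; 3.69 per Mb). Of the 26 members on the tendon and connective tissue list, 9 were those of Tcf4, the E-protein gene also counted among the LIM partners. After Tcf4 the highest scores there were in the fibrillin gene Fbn2, with 3 members up to 18, and in the fibrillin-binding genes Ltbp1 and Ltbp2, with 15 each.

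Axon guidance genes held members in 24 of 62 cases (38.7%, 27.6 to 51.2), and their median length was 193 kb. The share was 4.40% over all protein-coding genes, 10.6% in those of 50 to 200 kb and 33.3% in those of 200 to 500 kb. Slit3, a repellent ligand, held 6 with scores of 8 to 24, and its receptor gene Robo2 held 6 with 9 to 18 over 1555 kb. Other members lay in Sema5a (6), Robo1 (4), Plxna4 (4), Nrp1 (2), Sema3a (2), Epha3 (2) and Dcc (1). Density was 2.56 per Mb, where all protein-coding genes had 1.43, those of 50 to 200 kb 1.41 and those of 200 to 500 kb 1.99. Cadherin and catenin genes, with a median length of 151 kb, held them in 6 of 40 cases (15.0%, 7.06 to 29.1) and at 0.403 per Mb.

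Genes of cytoskeleton and cell polarity were hosts in 28 of 66 cases (42.4%, 31.2 to 54.4; 1.95 per Mb), among them Arhgap24, Pard3b, Pard3 and Magi1 with highest scores of 30, 18, 17 and 17. The share over all protein-coding genes was 4.40%. The median length on this list was 296 kb, and genes of 200 to 500 kb had 33.3% (30.0 to 36.7) and 1.99 per Mb. Chromatin and RNA regulators were hosts in 24 of 47 (51.1%, 37.2 to 64.7; 4.44 per Mb), with Auts2 and Setbp1 highest at 23 and 20, and Cbfa2t3, Celf4 and Hdac9 level at 18. Their median length was 164 kb, and genes of 50 to 200 kb had 10.6% and 1.41 per Mb. Very long genes of the nervous system were hosts in 33 of 53 (62.3%, 48.8 to 74.1), the largest share of any list, but at 1.48 per Mb they were as densely occupied as protein-coding genes in general, at 1.43. Protein-coding genes of 500 kb or more had 50.7% (44.2 to 57.1) and 1.72 per Mb.

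Lists of markers of other cell types held few members in number, but not always a share below the 4.40% or a density below the 1.43 per Mb of all protein-coding genes. Endothelial genes held a member in 3 of 20 cases (15.0%, 5.24 to 36.0), Mecom, Ets1 and Fli1, at 5.64 per Mb, above the 5.15 of joint and cartilage genes; Mecom gave 8 of the 10 members. Blood genes held one in 2 of 20 (2.79% to 30.1%, Runx1 and Ptprc; 2.53 per Mb) and ectoderm genes in 2 of 22 (2.53% to 27.8%, Grhl1 and Grhl3; 2.77 per Mb). Muscle genes did so in 1 of 25 (0.710% to 19.5%, Met; 0.753 per Mb), and housekeeping genes in 1 of 20 (0.888% to 23.6%, Hprt), which in so short a total length came to 4.46 per Mb. Nerve and Schwann cell genes held one in 0 of 18 cases, which allows a share of up to 17.6%, and adult liver and gut genes in 0 of 24, which allows up to 13.8%. The Wilson intervals of all 7 lists include 4.40% except that of endothelial genes. Whether other cell types contribute to the members was not tested.

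**Figure D4:**
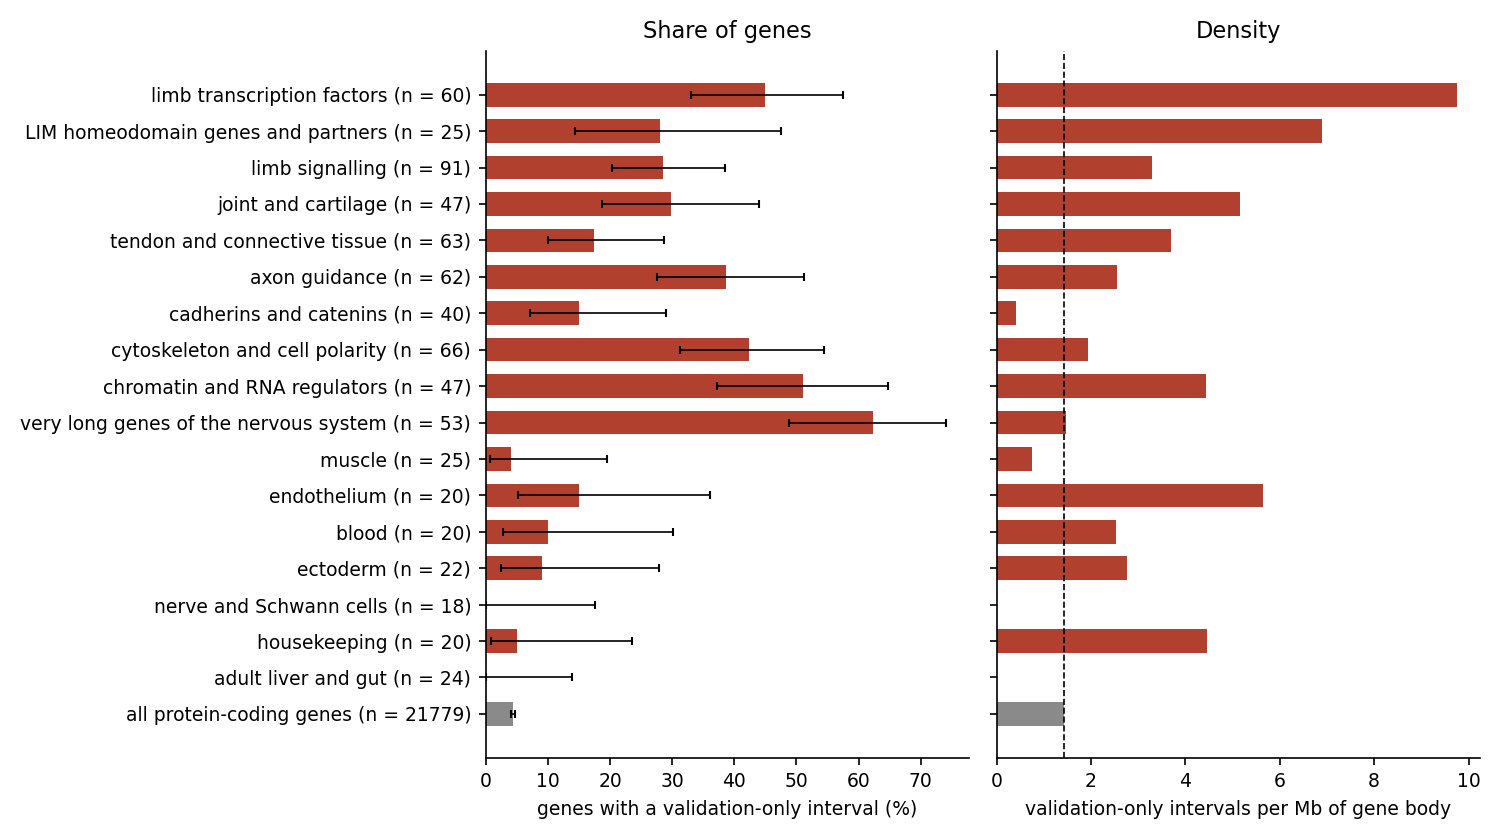
Gene lists: left, percentage of genes with a validation-only interval inside the body, with 95% Wilson intervals and the number of genes found; right, validation-only intervals per Mb of gene body, with a dashed line at the value for all protein-coding genes (1.43). Limb transcription factor genes have the highest density, 9.75 per Mb, and very long genes of the nervous system the highest percentage, 62.3%. The lists were chosen with earlier results of these data known.

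The position of members was also set against limb transcription factor genes. Inside the body of a gene on that list lay 54 members (3.04%, 2.34 to 3.95) and 6 shared intervals in gene bodies (2.02%, 0.929 to 4.34), while these bodies take up 0.446% of annotated gene-body length. Outside one but within 500 kb lay 59 members (3.32%, 2.58 to 4.26) and 17 shared intervals (5.72%, 3.604 to 8.97), and 1.62% of gene-body length lies in that range. The Wilson intervals of members and of shared intervals overlapped in both cases, which does not show that the shares are alike. Of validation-only intervals outside genes 122 (8.70%, 7.34 to 10.3) lay within 500 kb of such a gene. The share of gene-body length is no background for those.

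Spacing was uneven as well. Of members, 614 (34.6%, 32.4 to 36.8) had another within 50 kb, against 360 validation-only intervals outside genes (25.7%, 23.5 to 28.0) and 50 shared intervals in gene bodies (16.8%, 13.0 to 21.5), each within its own set; sets of different size cannot be ranked by this. The 614 formed 250 runs, of which 23 held 4 or more. After Dnm3 the longest were 6 members over 52.6 kb at 1 end of Tcf4, with scores of 7 to 21, and 6 over 120 kb in Smyd3, with 9 to 17. Runs of 5 lay in Ccbe1, Bnc2, Creb5, Lrmda, across Erc2 and Wnt5a, and in a second part of Dnm3. A set of 5 in the non-coding genes Gm31686, Gm38809 and Gm46959 on chromosome 6 had scores of 12 to 23. Neither Tcf4 nor Smyd3 had a shared interval within 50 kb of its run.

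Along the gene, members were spread nearly evenly. Of 1175 members in protein-coding hosts with a known strand, 25.4%, 25.2%, 22.8% and 26.6% lay in 4 successive stretches of equal length from the start. Of 190 shared intervals it was 16.3%, 25.3%, 26.8% and 31.6%. Within 10 kb of the outermost start lay 167 members (14.2%, 12.3 to 16.3) and 10 shared intervals (5.26%, 2.88 to 9.42). Exons and introns were not resolved.

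Chromosome X held few members: 13, or 0.243 per Mb of gene body, against 1.49 on the autosomes together, whose lowest value was 1.06 (chromosome 17) and highest 2.27 (chromosome 18). Shared intervals in gene bodies numbered 1 on X (0.0187 per Mb, in Dmd), against 0.249 on the autosomes. Of the 13, 7 lay between Gpc3 and Plac1, including 3 in Gpc3, a glypican gene of growth control, with scores of 19, 9 and 11. The highest on X, 23, was in Cask.

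**Figure D5:**
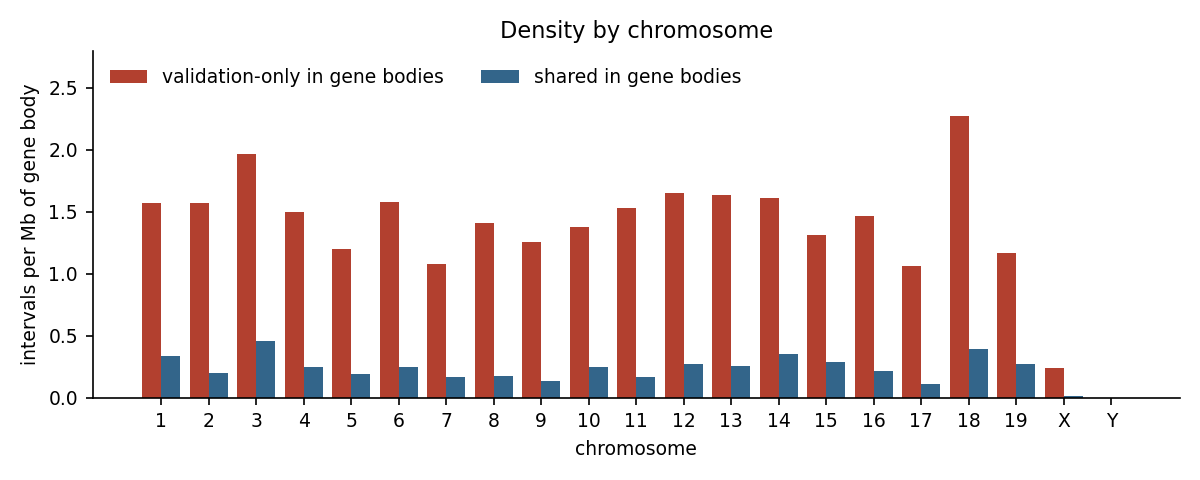
Validation-only and shared intervals in gene bodies per Mb of gene body on each chromosome. Chromosome X stands at 0.243 validation-only intervals per Mb, below every autosome, of which chromosome 17 is lowest at 1.06.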

How the data were processed

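ChIP DNA was aligned with BWA and the build was mm10, per the submitters' processing notes; for versions, peak caller and calling threshold: not given in the sources used here. The deposited score per summit is the authors' own value, a whole number without a stated unit, used only to describe and rank intervals within the validation list. Summits of 1677 members (94.4%) fell on a 16 bp grid. Depth is unknown, so no value carries a sampling error from reads.

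Intervals were tied to samples by track name, with coordinates from 1. Gene bodies came from a RefSeq table of GRCm38.p6 (49603 genes after 394 rows on other sequences were left out), and strand and start sites from RefSeq promoter windows. Of 706 list entries 2 were not found and 1 was a second name of the same gene. Members and gene lists were chosen with earlier results of these data known, and no set test or random placement was run. Named are the 12 highest-scoring members, the 10 protein-coding genes with most members, up to 4 genes a list by score, members nearest to the first list and to the limits, and Lmx1b; other genes were chosen after their values were seen. The overlap and location functions were tested on simulated data. Motifs around summits were planned and not run, since no genome was used. Computation used Python 3.11.15, pandas 2.3.3 and SciPy 1.17.1.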

Additional observations from a re-analysis of the deposited data

How the results depend on the processing

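No paired analysis was possible because each list is a single sample. Leaving out intervals within 500 bp of the first list (1758 members) or placing intervals by summit (1778) kept every summary value within its interval or, for counts, within 1.5-fold. With gene ends of 2.5 kb the median host was 196 kb long. With protein-coding genes only it was 217 kb, and 23.5% of members had a host with a shared interval. Restricted to scores at or above the median of the validation list, by construction fewer and stronger, members numbered 939 in 582 protein-coding genes, with a median score of 13, a median width of 617 bp and 22.9% with another within 50 kb. At 10 kb that share was 14.0% for all members, and 17.1% had a first-ChIP interval within 50 kb. Of 34 list counts under the score and 500 bp settings, 28 stayed within 1.5-fold; the 6 others, all with higher scores, were limb transcription factors (14), LIM genes and partners (4), cytoskeleton (13), and muscle, ectoderm and housekeeping (0 each). Unknown depth limits what absence from the first list can show. The planned motif alternatives around summits were not run, and the cause of the changes in host length was not tested. Densities per Mb of usable gene-body length, added after seeing the data, stayed within 1.5-fold of those over whole bodies for every length class and list with a member (1.53 against 1.43 for all protein-coding genes).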
